A study of Mus musculus with 22 samples.

Results

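The libraries described here measure what depletion of the ribosomal protein gene Rpl14 did to mouse embryonic stem cells in which the transcription factor gene Dux was depleted as well. Members were chosen by their labels: every library given siRNA (small interfering RNA) to Rpl14 together with siRNA to Dux (siRpl14+siDux), and every library given siRNA to Dux together with siNT (called siDux below). These are 6 of the 22 libraries of the series, 3 on each side. All came from E14 cells, an embryonic stem cell line grown on gelatin with leukemia inhibitory factor, and RNA was taken 3 days after transfection. The labels name no genotype, clone or passage, and they do not spell out what NT stands for. The siNT+siNT and siRpl14+siNT libraries (called siNT and siRpl14) are used to ask whether the response differed without siDux. These contrasts share no library with the main one. The same libraries serve to check the siDux label. They also enter the choice of genes kept and the estimate of the spread behind the p-values.

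The 6 libraries lie in 2 deposited tables of FPKM values (fragments scaled by transcript length and library size), and every comparison was made within a table. Set 2 holds 1 siDux and 1 siRpl14+siDux library, so it has no replicates and a gene is described there as higher or lower when it differed by at least 2-fold on the log2(FPKM + 1) scale. Set 3 holds 2 libraries a side. It was tested with limma on log2(FPKM + 1), with p-values adjusted by the Benjamini-Hochberg method over 13189 genes, and "rose" and "fell" below mean an adjusted p under 0.05 in that fit. Separate cultures are not stated for the replicates, so the p-values speak of the spread among these libraries alone, and that spread may be technical. Read counts are unknown. The set 3 table was far coarser at low values: 51.1 to 55.7% of genes were listed at 0 against 30.5 and 31.3% in set 2, and the 10th percentile of values above 0 was 1.23 to 1.60 FPKM against 0.063 and 0.077. Replicates of set 3 correlated across 6999 genes at r = 0.849 for siDux and r = 0.809 for siRpl14+siDux, where genes are not independent.

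Ribosomal proteins are made in step with ribosomal RNA, and loss of one of them stalls assembly of its subunit. Free ribosomal components can bind the ubiquitin ligase Mdm2, which keeps the transcription factor p53 low, so p53 target genes are a usual readout of such a stall. Dux activates genes of the 2-cell embryo, which rare 2C-like cells of these cultures also express. siDux is thus aimed at lowering the activator of that program while siRpl14 is applied.

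The siRNA targets were read first. Rpl14, a protein of the large ribosomal subunit, stood at 1089 FPKM in siDux and 360 FPKM in siRpl14+siDux in set 2, and at 1128 and 1188 FPKM against 353 and 279 FPKM in set 3. The groups lay far apart in both sets. Rpl14 fell by 1.88 ± 0.17 on the log2 scale (SE, n = 2; limma, adjusted p = 0.0136). Rpl11, another large-subunit gene that was not targeted in these libraries, stood at 762 and 783 FPKM against 815 and 748 FPKM in set 3, a difference of 0.01 ± 0.13 (limma, adjusted p = 0.996). Dux itself was barely detected: in set 2 it stood at 0.306 FPKM in siNT, 0.0546 in siDux, 1.495 in siRpl14 and 0.168 in siRpl14+siDux, and in set 3 it was listed at 0 in all 4 libraries of the comparison. The siDux label is therefore checked below on genes that Dux activates.

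Across all genes, set 3 gave 43 genes that rose (0.326% of those tested) and 23 that fell (0.174%), 66 in all, with 1706 at an unadjusted p under 0.05. In set 2, which those calls did not use, 50 of the 66 had a difference of the same sign (75.8%, Wilson 95% interval 64.2 to 84.5%). These were 29 of the 43 higher and 21 of the 23 lower. The interval counts genes as independent, which they are not, and set 2 has 1 library a side. It does not cover the spread among libraries: with the 4 libraries of the comparison only, the share was 33.3%. Without siRpl14+siDux replicate 1 or replicate 2, only 2 genes rose either way and 0 or 1 fell, and without siDux replicate 1 or 2 there were 8 or 4 that rose and 0 or 2 that fell. Without any 1 siRpl14 or siNT library, 7 to 24 rose and 7 to 12 fell. Those libraries enter the estimate of the spread and the choice of genes tested, and not the difference itself. The single calls below therefore rest on the whole set of libraries. In set 2, 906 genes were at least 2-fold higher (7.34%) and 487 lower (3.94%). Of the 790 higher ones that were tested in set 3, 424 had both siRpl14+siDux libraries above both siDux libraries and 25 had them below, and of 409 lower ones 218 had them below and 23 above. Non-overlap alone was common, at 18.0% of all genes higher and 21.9% lower, while the pair of conditions together was met by 3.77% and 1.94% of the genes in both sets. Over 11252 genes the differences in the 2 sets correlated at r = 0.41, and at r = 0.49 over 5813 genes whose mean reached 5 FPKM in both sets; genes are not independent replicates.

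**Figure D1:**
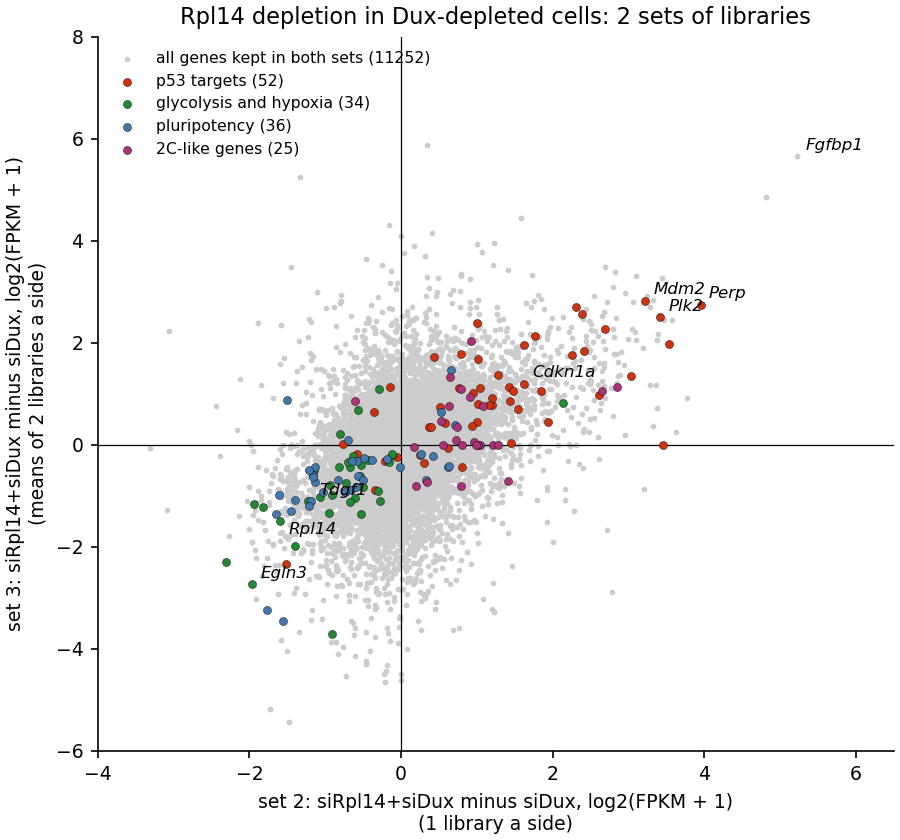
Difference between siRpl14+siDux and siDux in set 2 (horizontal) and set 3 (vertical), both on the log2(FPKM + 1) scale, for 11252 genes, with p53 targets, glycolysis and hypoxia genes, pluripotency genes and 2C-like genes in colour. Most p53 targets sit at upper right, most glycolysis and pluripotency genes at lower left, and many 2C-like genes lie on the horizontal line because they were listed at 0 in set 3.

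Among the genes that met both conditions upward, Fgfbp1, which encodes a secreted carrier of fibroblast growth factors, had the largest set 3 difference. It stood at 2.55 FPKM in siDux and 131 FPKM in siRpl14+siDux in set 2. In set 3 it was listed at 0 in both siDux libraries and stood at 57.5 and 43.0 FPKM in siRpl14+siDux (limma, adjusted p = 0.0230). Cyr61, a matricellular protein gene, stood at 4.15 and 144 FPKM in set 2 and at 1.82 and 0 against 54.2 and 41.6 FPKM in set 3 (limma, adjusted p = 0.0255). Ptpn14, a phosphatase gene that p53 is known to activate, went from 2.88 and 3.47 to 38.4 and 24.1 FPKM in set 3, a rise of 2.92 ± 0.42 (limma, adjusted p = 0.0355). Serpine2, a secreted protease inhibitor, rose by 2.48 ± 0.35 and Man2b1, a lysosomal mannosidase, by 3.09 ± 0.42 (limma, adjusted p = 0.0336 and 0.0310). In each of these 5 genes the groups were separate in set 3 and the set 2 difference was 2.80 or more on the log2 scale.

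p53 itself and its targets followed. Trp53, the gene of p53, stood at 213 and 379 FPKM in set 2 and at 57.4 and 20.8 against 40.5 and 49.3 FPKM in set 3, where the groups overlapped (0.36 ± 0.43; limma, adjusted p = 0.759). The p53 target list had 55 genes, all in the tables, and 53 were tested in set 3. Of these, 4 rose (Mdm2, Trp53inp1, Perp and Plk2) and 0 fell. Without overlap, 33 were higher and 3 lower, against 18.0% and 21.9% of all genes. The median difference was 0.92, against -0.03 over all genes tested. In set 2, 32 of 53 were at least 2-fold higher and 1 lower, against 7.34% and 3.94% of all genes, with a median of 1.16. Both conditions were met upward by 27 of the 52 genes in both sets and downward by Gls2 alone, against 3.77% and 1.94% of all genes.

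RefSeq start-site windows of assembly GRCm38.p6 were searched for the p53 half-site, the 10-base unit that p53 dimers bind, because these genes moved together. The build of the deposited values is mm9, so the coordinates are those of RefSeq. The half-site reads the same on both strands. It was found in the 250 bases before the start in 14 of 57 windows of the 45 targets with a window (24.6%) and in 7.13% of all 32851 windows. Of 25 windows of 2C-like genes, 5 held it. A match is a description of letters and not a binding site. The stretches below belong to targets that were higher in both sets and overlap no annotated UTR, with the half-sites in capitals and 20 bases either side:
Mdm2: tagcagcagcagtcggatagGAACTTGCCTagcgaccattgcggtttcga
Ccng1: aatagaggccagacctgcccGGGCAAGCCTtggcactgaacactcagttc
Ppm1d: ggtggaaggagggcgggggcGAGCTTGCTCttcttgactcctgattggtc
Cdkn1a: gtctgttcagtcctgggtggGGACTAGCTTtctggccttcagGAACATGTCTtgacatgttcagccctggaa
D630023F18Rik: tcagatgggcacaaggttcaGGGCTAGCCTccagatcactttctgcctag
The Mdm2 stretch is chr10:117710915-117710964 (minus strand) and begins its half-site 186 bases before the start. The Ccng1 stretch is chr11:40755442-40755491 (minus strand), the Ppm1d stretch chr11:85311102-85311151 (plus strand), and the D630023F18Rik stretch chr1:65123304-65123353 (minus strand). The Cdkn1a stretch, chr17:29090886-29090957 (plus strand), was the only one of the targets' windows with 2 half-sites at most 13 bases apart, a spacing found in 21 of all windows.

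Genes that feed back on p53 or modify its activity moved most evenly, with 9 of 10 higher without overlap in set 3 and 8 at least 2-fold higher in set 2. Mdm2, whose product degrades p53, stood at 55.7 and 526 FPKM in set 2 and at 33.7 and 14.7 against 157 and 172 FPKM in set 3. It rose by 2.83 ± 0.37 (limma, adjusted p = 0.0255), and the lower siRpl14+siDux library was above the higher siDux library. Trp53inp1, a p53 cofactor gene, stood at 34.8 and 189 FPKM in set 2 and at 41.3 and 37.8 against 157 and 132 FPKM in set 3, a rise of 1.84 ± 0.20 (limma, adjusted p = 0.0142). Ccng1, which encodes cyclin G1, stood at 77.6 and 227 FPKM in set 2 and at 78.9 and 79.7 against 160 and 106 FPKM in set 3 without passing (limma, adjusted p = 0.270). Ppm1d, a phosphatase that damps p53 signalling, differed by 1.04 in set 2 and 1.12 ± 0.39 in set 3, and Phlda3, an inhibitor of Akt, by 2.25 and 1.76 ± 0.62. Cop1 was the exception, at -0.05 and -0.23 ± 0.49.

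Among 12 death genes, 7 of the 11 tested were higher without overlap and Perp rose. Perp, a membrane protein gene of p53-dependent death and cell junctions, stood at 16.8 and 274 FPKM in set 2 and at 15.9 and 11.8 against 103 and 92.8 FPKM in set 3, a rise of 2.75 ± 0.30 (limma, adjusted p = 0.0142). Fas, a death receptor gene, stood at 0.417 and 15.4 FPKM in set 2 and at 3.20 and 2.54 against 23.5 and 8.47 FPKM in set 3 without passing (limma, adjusted p = 0.270). Bbc3, which encodes Puma, differed by 0.76 and 1.12 ± 0.41. Bax, an effector of mitochondrial permeability, stood at 33.3 and 50.2 against 18.9 and 53.1 FPKM in set 3 with overlapping groups, and at 244 and 302 FPKM in set 2. Bax differed by 0.31 on the log2 scale in set 2, against 3.95 for Perp and 3.53 for Fas.

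Among 9 arrest genes, 6 were higher without overlap and Plk2 rose. Cdkn1a, the gene of the cyclin-dependent kinase inhibitor p21, stood at 50.0 and 156 FPKM in set 2 and at 42.2 and 17.4 against 82.8 and 49.1 FPKM in set 3. The groups were separate by a small margin and the difference of 1.20 ± 0.44 did not pass (limma, adjusted p = 0.310). Plk2, a polo-like kinase gene, stood at 16.6 and 187 FPKM in set 2 and at 8.36 and 5.71 against 49.8 and 38.4 FPKM in set 3, a rise of 2.50 ± 0.33 (limma, adjusted p = 0.0255). Sfn, which encodes 14-3-3 sigma, stood at 3.02 and 2.40 against 25.6 and 20.5 FPKM in set 3 and just missed the threshold (2.69 ± 0.48; limma, adjusted p = 0.0679). Gadd45g stood at 1.54 and 26.9 FPKM in set 2 and was listed at 0 in all 4 libraries of the comparison in set 3, so the sets disagreed. Without siDux its difference was 3.31 in set 2 and 2.58 in set 3.

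The 24 genes of repair and metabolism were mixed. In set 3, 11 of 23 tested were higher and 3 lower without overlap (Sesn1, Gls2 and Gdf15), and none passed the test. Rap2b, a small GTPase gene, stood at 8.91 and 62.9 FPKM in set 2 and at 6.56 and 11.0 against 40.9 and 49.7 FPKM in set 3 (2.27 ± 0.38; limma, adjusted p = 0.0593). The predicted gene D630023F18Rik differed by 2.39 and 2.57 ± 0.55. Lif, the cytokine the medium also supplies, stood at 1.77 and 8.42 FPKM in set 2 and at 1.64 and 1.21 against 11.8 and 7.74 FPKM in set 3. Gls2, a mitochondrial glutaminase gene, went the other way, at 18.9 and 5.97 FPKM in set 2 and at 6.44 and 2.42 against 0 and 0 in set 3. Xpc and Ddb2, genes of DNA damage recognition, differed by -0.36 and -0.77 in set 2 and by 0.63 ± 0.58 and 0.02 ± 0.18 in set 3.

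**Figure D2:**
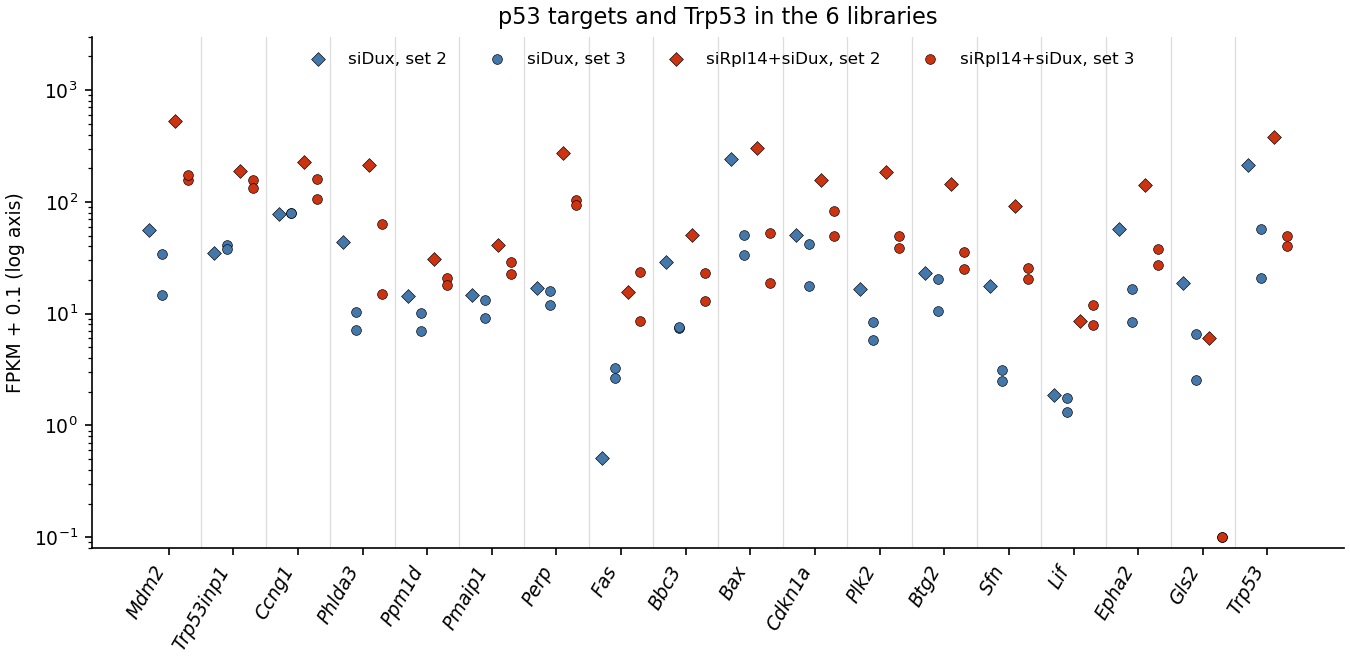
FPKM plus 0.1 on a log axis of 17 p53 targets and Trp53 in the 6 libraries, with set 2 as diamonds and set 3 as circles, siDux in blue and siRpl14+siDux in red. Mdm2, Trp53inp1, Perp and Plk2 are separate in every set, Bax and Trp53 overlap in set 3, and Gls2 is lower in the red libraries.

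The 2C-like genes, which respond to Dux, were low in these cells and stayed below control. Of 53 listed genes 41 are in the tables, and 34 of these were kept in set 2. There, 31 of 34 were below siNT in siDux, 30 at 20% of siNT or less. A gene was kept at 1 FPKM in any 1 of the 4 libraries. Of the 41, 14 were under 1 FPKM in all 6 siDux and siRpl14+siDux libraries, so some were kept only through siNT or siRpl14. Counts of the 34 below siNT or siRpl14 lean in part on that rule. The siDux label is therefore read on the summed level of all 41 genes, which used no such rule: 215 FPKM in siNT and 23.8 in siDux. Adding siRpl14 left 31 of 34 above siDux, but 32 of 34 were below siNT and 32 below siRpl14. Zscan4d, a zinc finger gene that marks 2C-like cells, stood at 26.1 FPKM in siNT, 0.688 in siDux, 58.1 in siRpl14 and 2.92 in siRpl14+siDux. Zscan4c ran in the same order at 18.6, 0.966, 41.3 and 2.43 FPKM. Over the 5 Zscan4 genes, near copies that share reads, the summed level was 91.8 FPKM in siNT, 3.23 in siDux, 184 in siRpl14 and 11.2 in siRpl14+siDux. siRpl14 thus went with a 2.00-fold higher sum without siDux and a 3.47-fold higher sum with it, from a level that siDux had brought to 3.52% of siNT.

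Usp17lb, of a multicopy family of deubiquitinase genes whose copies share reads, stood at 5.41, 0.465, 27.5 and 2.55 FPKM in siNT, siDux, siRpl14 and siRpl14+siDux, and Gm2022, a translation factor-like gene that also has near copies, at 8.76, 0.535, 20.8 and 1.65 FPKM. The sum over the 5 Usp17l genes was 19.2, 1.61, 89.9 and 7.20 FPKM, which is 4.68-fold higher with siRpl14 without siDux and 4.46-fold higher with it. These are ratios of single libraries with no test. On the log2(FPKM + 1) scale, which compresses such low values, the median was 0.68 with siDux and 1.12 without, 8 and 22 of 34 were at least 2-fold higher, and the response was lower with siDux for 28 of 34 against 49.8% of all genes. On FPKM itself the picture was another: 29 of 34 were at least 2-fold higher with siRpl14 in siDux cells and 26 without siDux, and the ratio was lower with siDux for 13 of 34 (2 of the 34 were listed at 0 in siNT or siDux). Whether the response was smaller with siDux thus depended on the scale.

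Ddit4l and Zfp750 were as high in siDux as in siNT. Ddit4l stood at 5.74 FPKM in siNT, 7.27 in siDux, 56.6 in siRpl14 and 58.3 in siRpl14+siDux, and Zfp750 at 2.18, 2.57, 19.4 and 21.4 FPKM. Both were higher with siRpl14 to the same level whether Dux was depleted or not. They were singled out after their values were seen. The summed level of all 41 genes in set 2 was 215 FPKM in siNT, 23.8 in siDux, 586 in siRpl14 and 120 in siRpl14+siDux, so the last was 56.0% of siNT and 20.5% of siRpl14. Without Ddit4l and Zfp750 the summed level of the other 39 genes was 207 FPKM in siNT, 13.9 in siDux, 510 in siRpl14 and 40.4 in siRpl14+siDux, or 19.6% of siNT and 7.93% of siRpl14.

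In set 3 the list was hard to read. Of 27 genes tested, 0 rose and 0 fell, and 4 were higher without overlap, against 18.0% of all genes. Another 7 were listed at 0 in all 4 libraries, Zscan4c, Zscan4d and Usp17lb among them. Of the 41 genes measured, 19 were listed at 0 in those 4 libraries. Of the 27, 17 had fewer than 2 of the 4 libraries at 1 FPKM and were kept through their level in siNT or siRpl14, so a median or count of the list with siDux against without is not read in this set. Zscan4a stood at 0 and 0 against 1.99 and 4.65 FPKM. The summed level over the 41 genes was 16.7 and 30.0 FPKM in siDux and 34.0 and 52.4 in siRpl14+siDux, without overlap. It was 73.2 and 72.5 in siNT and 223 and 271 in siRpl14. Without Ddit4l and Zfp750 the other 39 genes summed to 11.9 and 21.8 FPKM in siDux and 19.6 and 36.6 in siRpl14+siDux. Those groups overlapped. Their sum in siNT was 72.2 and 65.7 FPKM, so siRpl14+siDux stayed below siNT either way. No member passed the test of the difference between the responses with and without siDux.

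**Figure D3:**
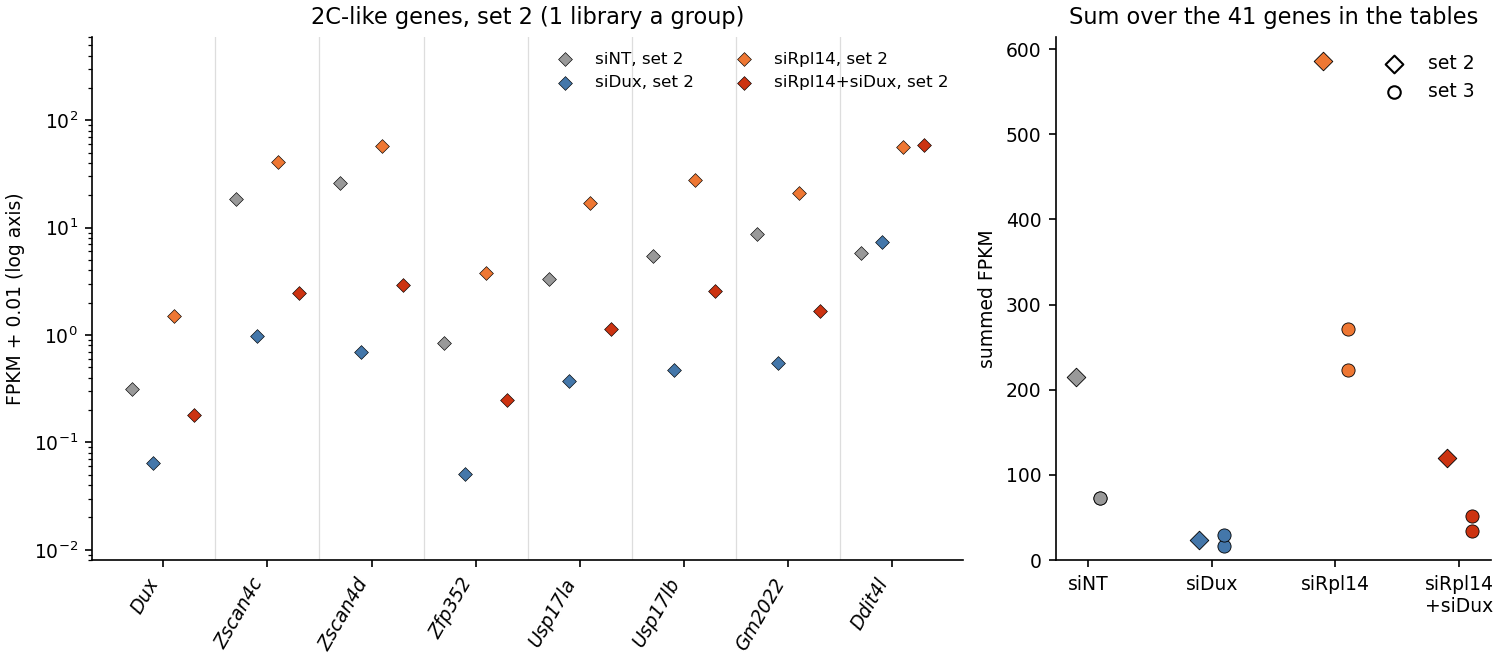
Left, FPKM plus 0.01 on a log axis of 8 genes of the 2C-like list in the 4 libraries of set 2. Right, summed FPKM over the 41 genes in the tables, set 2 as diamonds and set 3 as circles. Zscan4, Usp17l and Gm2022 are lowest in siDux and stay below siNT in siRpl14+siDux, while Ddit4l is the same with and without siDux.

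Ribosomal protein genes other than Rpl14 had mostly small differences, and most were negative in set 3. Of 78 tested, none rose or fell. Without overlap, 3 were higher and 39 lower, against 18.0% and 21.9% of all genes. The median was -0.25 in set 3 and -0.06 in set 2, and 64 and 50 of the 78 had a negative difference. In set 2, only 1 of the 78 differed by 2-fold or more: Rpl3, a large subunit gene, at -1.11 and at -1.17 in set 3. Rpl26 and Rpl30 had 1 set 3 siDux library near 0 (0.341 and 0.0573 FPKM) and the other at 401 and 29.2 FPKM, so no difference is read from them. Of 73 ribosome biogenesis genes none passed, with medians of -0.04 and -0.02. The list of ribosomal protein paralogs had 6 genes tested, among them Rps19bp1, which encodes a binding protein of Rps19 and no paralog. None of the 6 passed. Rpl22l1 stood at 683 and 674 against 250.5 and 398 FPKM in set 3 and at 99.7 and 39.6 FPKM in set 2.

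Genes of amino acid supply were lower. They belong to the response driven by the transcription factor ATF4, whose mRNA differed by -0.19 in set 2 and -0.35 ± 0.28 in set 3. Of 18 amino acid genes 11 were at least 2-fold lower in set 2 and 1 higher (Slc38a2, a glutamine carrier), against 3.94% and 7.34% of all genes. In set 3, 10 were lower and 5 higher without overlap, against 21.9% and 18.0% of all genes. The medians were -1.17 in set 2 and -0.90 in set 3. Phgdh, the first enzyme of serine synthesis, stood at 127 and 25.6 FPKM in set 2 and at 23.4 and 18.1 against 3.99 and 6.83 FPKM in set 3 (-1.79 ± 0.42; limma, adjusted p = 0.146). Psat1, the next enzyme, stood at 225 and 64.5 FPKM and at 49.9 and 47.8 against 22.8 and 9.27 FPKM. Psph, the last serine enzyme, disagreed between the sets, at 39.9 and 14.6 FPKM in set 2 but 13.5 and 20.3 against 32.4 and 48.8 FPKM in set 3. The list of tRNA synthetases held 12 genes, among them Xpot, which encodes a tRNA export receptor and no synthetase. All 12 had a negative difference in set 2 and 10 in set 3, with 3 at least 2-fold lower in set 2. Chac1, a glutathione-degrading enzyme that ATF4 induces, stood at 13.9 and 1.95 FPKM in set 2. Ddit4, a stress-induced inhibitor of mTOR, was higher instead, at 86.3 and 427 FPKM in set 2 and at 38.6 and 70.8 against 167 and 164 FPKM in set 3 (1.64 ± 0.34; limma, adjusted p = 0.0998). None of the 43 ATF4 list genes tested passed.

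Glycolytic genes were lower with siRpl14 in both sets, and hypoxia-inducible genes were more mixed. All 20 glycolysis genes in the tables had a negative difference in set 2. In set 3, 15 were lower without overlap and 0 higher, against 21.9% and 18.0% of all genes. The medians were -0.70 in set 2 and -0.77 in set 3. Aldoa, an aldolase gene, stood at 1307 and 696 FPKM in set 2 and at 513 and 486 against 245 and 256 FPKM in set 3 (-0.99 ± 0.16; limma, adjusted p = 0.0591). Gapdh stood at 867 and 660 against 597 and 528 FPKM. Vegfa, the hypoxia-induced growth factor of blood vessels, stood at 22.6 and 3.76 FPKM in set 2 and at 11.9 and 16.4 against 3.06 and 1.32 FPKM in set 3. Egln3, a hypoxia-induced prolyl hydroxylase, fell from 38.1 and 40.5 to 5.84 and 4.34 FPKM (-2.74 ± 0.40; limma, adjusted p = 0.0372), with 26.8 and 6.10 FPKM in set 2, and it was the 1 gene of the list that passed. Of the 15 hypoxia genes, 7 were lower and 3 higher without overlap in set 3 (P4ha2, Pfkfb4 and Mif). Pfkfb4, a regulator of glycolytic flux, was higher in both sets, by 2.13 and 0.81 ± 0.64, while P4ha2, a collagen prolyl hydroxylase, differed by -0.29 and 1.09 ± 0.69. Eno1 and Mif also differed in sign between the sets.

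Lipid and cell cycle genes were lower as well. The cholesterol and fatty acid genes had a median of -0.40 in set 2 and -0.90 in set 3. Of 27 tested cholesterol and fatty acid genes, Scd2, a fatty acid desaturase, fell from 164 and 153 to 78.3 and 69.9 FPKM (-1.09 ± 0.17; limma, adjusted p = 0.0487) and stood at 165 and 85.2 FPKM in set 2. Without overlap, 15 were lower and 1 (Srebf2) higher, against 21.9% and 18.0% of all genes. Insig1, a sterol sensor, stood at 28.0 and 14.0 FPKM in set 2 and at 27.5 and 23.1 against 14.9 and 6.39 FPKM in set 3. Among 38 DNA replication genes and 35 mitosis genes, 23 of each were lower without overlap, against 21.9% of all genes. In the same set 1 (Clspn) and 2 (Kif20a and Anln) were higher without overlap. The medians were -0.64 and -0.55 in set 3 and -0.49 and -0.45 in set 2. At least 2-fold lower in set 2 were 1 of the 38 and 0 of the 35. Kif23, a kinesin of cytokinesis, stood at 45.1 and 42.9 against 20.4 and 15.3 FPKM, and Rpa2, a single-strand DNA binding protein gene, at 47.1 and 34.9 against 16.6 and 16.0 FPKM. H2afx, which encodes a histone variant of DNA repair, fell from 126 and 145 to 26.9 and 34.3 FPKM (-2.11 ± 0.21; limma, adjusted p = 0.0142) and stood at 529 and 234 FPKM in set 2.

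Most pluripotency genes were lower and many trophectoderm genes higher, with 1 of them past the test. Embryonic stem cell markers checked the label: all 10 were present in every group, though Tcl1 was listed at 0 in 1 siRpl14+siDux library of set 3. Their summed level was 7901 and 4795 FPKM in set 2 and 3179 and 2974 against 1982 and 1913 FPKM in set 3. Of 36 pluripotency genes 26 were lower and 3 higher without overlap in set 3, against 21.9% and 18.0% of all genes. In set 2, 15 were at least 2-fold lower and 0 higher, against 3.94% and 7.34% of all genes. The medians were -0.60 in set 3 and -0.67 in set 2. Tdgf1, a co-receptor of Nodal, was the 1 that fell, from 529 and 474 to 255 and 210 FPKM (-1.11 ± 0.16; limma, adjusted p = 0.0354). Among the core factors, Nanog stood at 425 and 189 FPKM in set 2 and at 333 and 330 against 221 and 217 FPKM in set 3 (-0.59 ± 0.15; limma, adjusted p = 0.168), Pou5f1 at 1086 and 726 FPKM and 830 and 727 against 592 and 647 FPKM, and Sox2 at 221 and 264 FPKM and 126 and 108 against 85.9 and 124 FPKM. Of these 3, Sox2 alone had overlapping groups and a sign that differed between sets. Naive factors were lower by more than the core ones, with 12 of 21 at least 2-fold lower in set 2 (Nr0b1, Tcl1, Fgf4 and Spp1 at -1.55, -1.77, -1.64 and -1.60 on the log2 scale) against 3 of 15.

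Primed and lineage genes were present at low levels. Otx2, a factor of the primed epiblast, stood at 7.14 and 43.0 FPKM in set 2 and at 12.1 and 2.03 against 17.9 and 4.65 FPKM in set 3, where the groups overlapped. Nes stood at 1.53 and 11.0 FPKM in set 2 and at 1.503 and 0.551 against 9.40 and 8.23 FPKM in set 3. Over the list, 7 of 16 tested were higher and 2 lower without overlap, against 18.0% and 21.9% of all genes, with none called. Most trophectoderm genes were higher. In set 2, 9 of 15 kept were at least 2-fold higher and 1 lower (Tead4), against 7.34% and 3.94% of all genes, with a median of 1.93. A set 2 gene was kept at 1 FPKM in any 1 of 4 libraries, so that count and median lean in part on this rule. Gata3 and Cdx2, under 1 FPKM in siDux, were kept through other libraries. In set 3, 5 of 12 were higher without overlap and 0 lower, against 18.0% and 21.9% of all genes. The set 3 median was 0.95, with none called. Krt8, a keratin of simple epithelia, stood at 4.65 and 40.9 FPKM in set 2 and at 1.27 and 4.004 against 13.4 and 4.32 FPKM in set 3. Krt18, its partner, stood at 4.20 and 27.9 FPKM and at 3.17 and 0 against 4.70 and 8.03 FPKM. Tfap2c, a trophectoderm and germline factor, stood at 17.8 and 62.2 FPKM and at 2.66 and 17.7 against 24.8 and 34.8 FPKM. Gata3 and Cdx2, defining factors of the lineage, stood at 0.0860 and 6.58 FPKM and at 0.156 and 3.40 FPKM in siDux and siRpl14+siDux of set 2, and each was listed at 0 in 3 of 4 libraries of set 3. The whole list summed to 107 and 362 FPKM in set 2 and to 35.0 and 42.1 against 101 and 92.1 FPKM in set 3. In bulk samples, fewer cells of a type and less RNA per cell cannot be told apart, here and in the stem cell markers above.

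**Figure D4:**
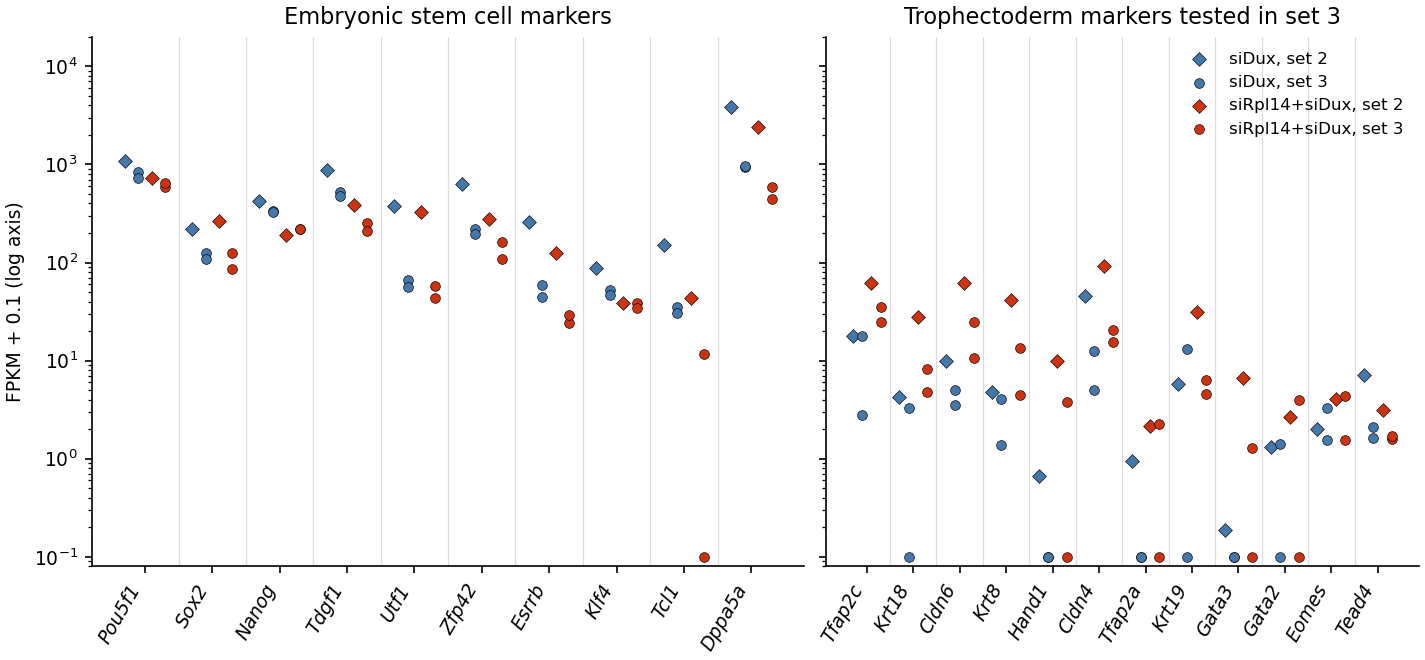
FPKM plus 0.1 on a log axis of 10 embryonic stem cell markers and of the 12 trophectoderm markers tested in set 3, with set 2 as diamonds and set 3 as circles. Stem cell markers sit lower in siRpl14+siDux in most cases, with Sox2 and Utf1 overlapping in set 3, and Tfap2c, Krt8, Krt18, Cldn4 and Cldn6 sit higher.

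Markers of other cell types were low. Of 19 fibroblast markers 10 were under 1 FPKM in all 6 libraries. The list summed to 223 and 336 FPKM in set 2, of which Vim gave 101 and 224 FPKM and Fn1 gave 106 and 88.5 FPKM. Tagln stood at 1.17 and 10.9 FPKM in set 2 and at 7.07 and 10.9 against 37.0 and 36.0 FPKM in set 3. Primitive endoderm genes had a median of 0.00 in set 3 and 0.45 in set 2, with Sparc the 1 higher without overlap and Gata6 at 0.489 and 1.76 FPKM in set 2. Over all genes tested in set 3, 18.0% were higher and 21.9% lower without overlap. Germline genes (5 higher, 5 lower without overlap of 16), interferon genes (0 and 2 of 10) and signalling feedback genes (4 and 7 of 24) had none called. Their part in the other results was not tested.

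The siRpl14 response was then set beside the response without siDux. Over 12345 genes of set 2 the 2 responses correlated at r = 0.88, and over 13189 genes of set 3 at r = 0.30, as a description. Of the 424 genes higher in both sets with siDux, 363 were also at least 2-fold higher without siDux in set 2 (85.6%) and 376 had the same sign in set 3, and of the 218 lower genes 168 (77.1%) and 197. The same shares over all genes were not counted. Without siDux, the median difference was 1.42 in set 2 and 1.09 in set 3 for the 424, and -1.25 and -1.11 for the 218. Over all genes it was 0.01 and -0.05. The p53 targets had a median of 1.16 with siDux and 1.17 without in set 2, and 0.92 and 0.95 in set 3. Mdm2 differed by 3.22 with and 3.17 without siDux in set 2 and by 2.83 and 2.89 in set 3. Glycolysis and hypoxia genes had medians of -0.69 with and -0.96 without siDux in set 2 and of -0.79 and -0.95 in set 3. Trophectoderm genes had 1.93 with and 1.31 without in set 2 and 0.95 and 0.52 in set 3, with a larger value with siDux for 13 of 15 genes in set 2 and 8 of 12 in set 3. Krt8 stood at 18.6 FPKM in siRpl14 and 40.9 in siRpl14+siDux in set 2, and the whole trophectoderm list at 213 and 362 FPKM. Of 36 pluripotency genes, 25 in set 2 and 28 in set 3 had a lower value with siDux. Among the 15 core ones it was 13 and 15. The core medians were -0.38 with and -0.26 without siDux in set 2, and -0.33 and 0.01 in set 3. Over all genes, 49.8% in set 2 and 50.9% in set 3 had a lower value with siDux. These differences were not called: of 13189 genes tested in set 3, 2 passed the test of the difference (0.0152%; 699 at an unadjusted p under 0.05).

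**Figure D5:**
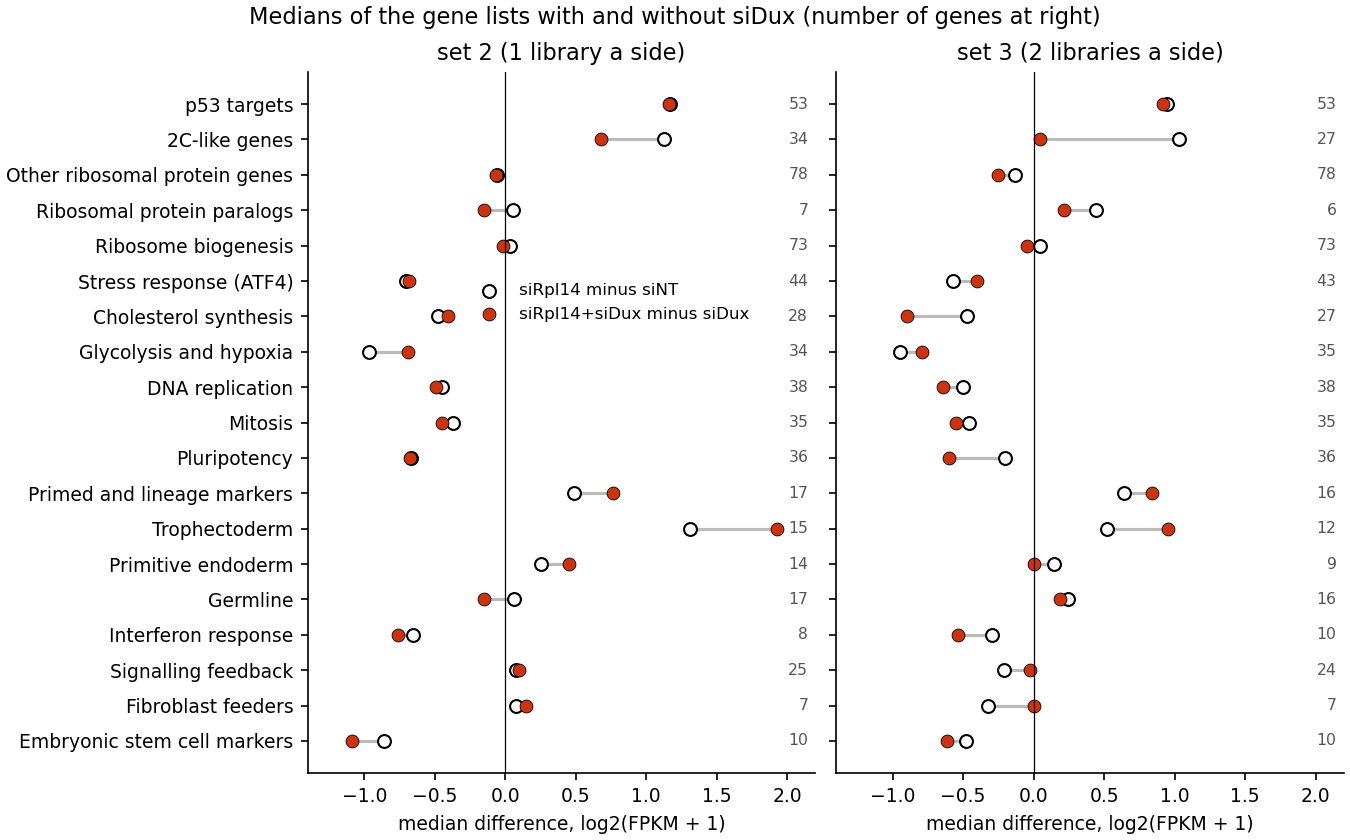
Median difference on the log2(FPKM + 1) scale of 19 gene lists in set 2 and set 3, red with siDux and open without, with the number of genes at the right of each row. The p53 targets nearly coincide with and without siDux in both sets (1.16 and 1.17, 0.92 and 0.95), and the red 2C-like value of set 3 is held near 0 by 7 members listed at 0 in all 4 libraries.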

How the data were processed

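The authors deposited FPKM values of 24819 genes in 2 tables. The submitters' processing notes name STAR, Cuffnorm and the build mm9. Versions, annotation, strand setting and normalization: not given in the sources used here. Sets were read from table and title style (set 2, 4 libraries; set 3, 10). Set 3 was fitted with limma 3.58.1 (R 4.3.3, statmod 1.5.0, trended and robust moderation) on log2(FPKM + 1) of 8 libraries in 4 groups, for genes at 1 FPKM or more in at least 2 libraries, with Benjamini-Hochberg adjustment at 0.05. Differences of FPKM on this scale understate changes of low genes. Set 2 genes had 1 FPKM or more in at least 1 of 4 libraries and had no test. Depth is unknown, and low steps put the set 3 libraries at 0.620 to 1 times that of siDux replicate 1. The code was tested on simulated data.

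Genes named are the siRNA targets and Trp53, the 8 raised and 8 lowered most in set 3 with the same sign in set 2, up to 4 members a list with the largest set 3 difference, and defining genes; other members named were chosen after their values were seen. The libraries, 19 lists and tests were chosen with earlier results of these data known. The rule of 2-fold in set 2 with set 3 groups not overlapping, and the restriction to genes at 5 FPKM in set 2, were added after seeing the data. Replicate numbers of set 3 are not stated to pair the libraries. The main fit used no block, and a fit with the number as a block was an alternative. Alternatives tried were other pseudocounts, filters, scalings, moderation and folds, and leaving out libraries. Promoter windows are RefSeq's, GRCm38.p6.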

Additional observations from a re-analysis of the deposited data

Results flagged for a closer look

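The siRpl14 response differed with and without siDux by the limma test of that difference in 2 genes of set 3. Mir6363, a microRNA gene, had a difference of 10.8 on the log2 scale: it was listed at 0 in every other set 3 library of the fit and at 1772 and 1867 FPKM in the 2 siRpl14+siDux libraries. It was at or near 0 in set 2 (0.000397 FPKM in siRpl14+siDux), so the other table did not show it. Gm9748 had a difference of -4.78: it stood at 18.8 and 18.6 FPKM in siDux, 45.8 and 36.1 in siRpl14+siDux, 0 and 0 in siNT and 66.3 and 49.7 in siRpl14, and at or near 0 in all 4 libraries of set 2.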

How the results depend on the processing

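In set 3, 43 genes rose and 23 fell. Leaving out single libraries gave 2 to 24 and 0 to 12, and 0 to 2 past the test of the difference of responses, where the reported count is 2. The share of calls with the same sign in set 2, reported as 75.8%, ran from 0 to 77.8% in those fits. With the 4 libraries of the comparison only, 3 rose, 0 fell and the share was 33.3%. With a pseudocount of 5, 66 rose, and for genes at 5 FPKM or more in set 2, 24. The count of the difference of responses was 0 for those genes, 13 without trend or robust moderation, and 1 with no filter, a pseudocount of 5 or the replicate block. Requiring a difference of 0.5 in set 2 put the share at 45.5%. Same-numbered libraries correlated in their deviations at 0.036 to 0.060. These values are low but all positive, so they do not settle whether the numbers pair the libraries. Under the replicate block 49 rose and 28 fell. In set 2, the counts higher and lower were 1908 and 1639 at 1.5-fold, 334 and 86 at 3-fold, 379 and 172 at a pseudocount of 5, and 973 lower at 0.1. With the condition of non-overlap added, they were 730 and 624, 197 and 45, and 243 and 118. Of 17 named genes called, none reversed sign under any alternative run, 161 fits kept the call and 140 lost it: of 16 run without either siRpl14+siDux library none was kept, and with 4 libraries only 1 of 17 was. List medians kept their sign under every alternative for 18 of 19 lists in set 2 and 15 of 19 in set 3. Depth limits low genes of set 3, where a 0 can be a value below what the table resolves. Not every 0 reads so: Snhg6 and Gadd45g were at 0 in siRpl14+siDux of set 3 but well above its low values in set 2. The reason was not tested.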

Other observations

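Snhg6, a small nucleolar RNA host gene, fell by 5.18 ± 0.53 in set 3 (limma, adjusted p = 0.0142), from 57.8 and 21.3 FPKM to 0 and 0, and stood at 38.5 and 10.9 FPKM in set 2. Without siDux its difference was 0.11 in set 3 and -0.96 in set 2. Acrbp, a sperm protein gene, stood at 11.9 and 15.4 against 0 and 0 FPKM in set 3 and at 4.91 and 2.10 FPKM in set 2. Tubb2b, a tubulin gene, fell from 145 and 111 to 52.6 and 46.8 FPKM in set 3 (-1.34 ± 0.20; limma, adjusted p = 0.0372) and stood at 196 and 65.5 FPKM in set 2, with a difference of -1.43 without siDux in set 3. Taf7l, a germ cell TFIID subunit gene, stood at 2.38 and 10.04 FPKM in set 2 and at 4.83 and 7.92 against 31.9 and 31.0 FPKM in set 3. Some genes sat at very different levels in the 2 tables: Slc7a11, a cystine carrier gene, stood at 1.14 and 2.42 FPKM in set 2 and at 240 and 272 against 307 and 366 FPKM in set 3.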
